A study of Mus musculus with 6 samples.

Results

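The genes described here encode RNA polymerase II, the general transcription factors that place it on promoters, and Mediator, the complex that links it to bound activators. The rule that picks them uses names and no measured value, and takes every entry of the authors' deposited table whose identifier starts with Polr2, Med and a digit, Taf and a digit, or Gtf2, or is Tbp. This gave 79 of 29209 entries, of which 78 were among the 18543 entries that the authors tested. Each of the 78 had a finite fold, and Taf7l, a germ cell relative of Taf7, was the 1 member without a test. By role, 11 tested members encode polymerase II subunits, 13 the factors TFIIA, TFIIB, TFIIE, TFIIF and TFIIH, 16 subunits of TFIID and 30 subunits of Mediator. The other 8 carry a matching name but belong to other complexes or families. The polymerase gene Polr2l and the TAF gene Taf1a were not analysed here.

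RNA came from 6 samples of subcutaneous tumour grown in NCr nude mice from splenic cells of diseased mir-155LSLtTA mice, which overexpress the microRNA miR-155. The labels call the group given doxycycline (DOX) miR-155 withdrawal. In the DOX group, 3 samples came from mice fed chow with 2.3 mg per kg DOX for 16 hours before harvest. In the no DOX group, 3 samples came from untreated mice. All 6 samples thus came from cells of the same labelled genotype, no sample without the transgene received DOX, and effects of DOX itself and of miR-155 loss cannot be told apart. The labels name neither the cell type of the tumour cells nor what drives the transgene, nor do they tie samples to individual mice. The p-values therefore measure sample-to-sample spread, part of which may be technical. The authors' deposited table gives 1 fold, 1 p and 1 adjusted p per gene and no value per sample, so no level, standard deviation or sequencing depth stands behind a single value here. Its fold column does not name a numerator. Here each fold is taken as DOX divided by no DOX, and "higher" and "lower" exchange places throughout if the authors divided the other way.

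RNA polymerase II makes the messenger RNA of nuclear genes. Its largest subunits form the catalytic cleft, smaller ones hold the core together or form a stalk where the new RNA leaves, and a few subunits are shared with polymerases I and III, which make ribosomal and transfer RNA. At a promoter, TFIID, built from the TATA-binding protein TBP and its associated factors (TAFs), is joined by TFIIA, TFIIB, TFIIF, TFIIE and the helicase and kinase complex TFIIH. Mediator has a head, a middle and a tail around the scaffold subunit Med14, and a detachable kinase module that can keep it from the polymerase. Growing tumour cells rely on this machinery for their output of RNA.

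The comparison asks which transcripts changed after 16 hours of DOX. In bulk samples, fewer cells of a type and less RNA per cell cannot be told apart. Markers of other cells moved in the same comparison. All 15 tested macrophage markers had a fold above 1 in the authors' deposited table, 4 of them past the threshold, with a median log2 fold of 2.16. Of 12 fibroblast markers 11 had a fold above 1, 2 of them past the threshold, with a median of 1.91 in the authors' deposited table. The 14 B lineage markers had a median of 0.49, with 4 higher and 2 lower past the threshold in the authors' deposited table. T cell markers, 6 in number, gave 0 calls in the authors' deposited table, with 1, Cd4, higher at an unadjusted p under 0.05. The 6 endothelial markers had a median of 0.47, with 4 folds above 1, in the authors' deposited table. Among them Eng was lower past the threshold, and Pecam1 was higher (log2 fold 0.89) at an unadjusted p of 0.0195, in the authors' deposited table. Summed levels of these markers per group cannot be had from folds, and their part in the results below was not tested.

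Past an adjusted p of 0.05 in the authors' deposited table, 5 of the 78 tested members changed, 1 higher and 4 lower. The rise was that of Med13, of the Mediator kinase module. Those that fell were Polr2a and Polr2f, of the polymerase itself, Taf10, of TFIID, and Taf5l, whose product belongs to the coactivator complex SAGA. The members' share of calls was 6.41%, against 11.3% of all tested entries. In the higher direction the share over all tested entries was 5.72%, and in the lower direction it was 5.61%, against 5.13% of members. The members were therefore called no more often than other genes. Without adjustment, 17 members (21.8%) passed 0.05 in the authors' deposited table, against 22.4% of all tested entries. Their directions were uneven. Of the 17, 16 were lower, or 20.5% of members, against 10.4% of all tested entries, and 1 was higher, against 11.9%. Over all 78, 60 members (76.9%) had a fold below 1, against 40.6% of all tested entries. Shares of all tested entries include entries with a ratio of 0 or infinity, whereas every tested member had a finite fold. Of tested entries with a transcript length, which all 78 had, 44.8% had a fold below 1, such ratios still included. The members' median log2 fold was -0.45 and that of all tested entries with a finite fold was 0.17. For finite folds of entries with a transcript length it was 0.047.

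**Figure D1:**
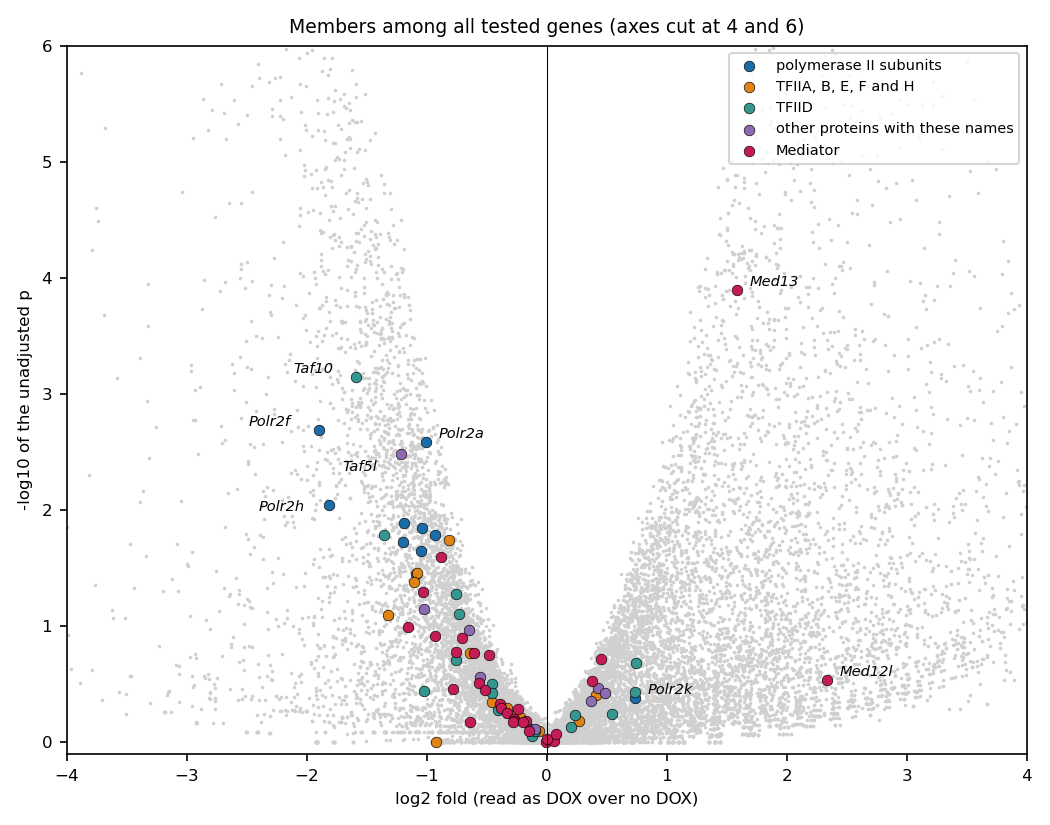
Log2 fold (x axis, read as DOX over no DOX) against -log10 of the unadjusted p (y axis) for tested genes with a finite fold in the authors' deposited table, grey, and for the 78 tested members, coloured by role; genes beyond a log2 fold of 4 or a y value of 6 are outside the axes. Of 11 polymerase II subunits, 10 lie left of 0, Polr2k being the exception, and Med13 (1.59) is the 1 member on the right that passed the adjusted threshold.

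Polymerase II subunits had the narrowest interquartile range of log2 folds of the 5 roles. Of 11 tested, 10 had a fold below 1 in the authors' deposited table, and their median log2 fold was -1.04, a median fold of 0.485. Past the adjusted threshold 2 fell (18.2%, against 5.61% of all tested entries in that direction). At an unadjusted p under 0.05, 9 of 11 were lower (81.8%, against 10.4%). Polr2a encodes RPB1, the largest subunit, which holds the active site and the long C-terminal tail that is phosphorylated during transcription. It stood at 0.498 of its level without DOX (adjusted p = 0.0286) in the authors' deposited table. Polr2f encodes RPB6, a small subunit shared by polymerases I, II and III. It had the lowest fold of all members, 0.269 (log2 fold -1.90, adjusted p = 0.0243), in the authors' deposited table.

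The promoters of Polr2a, Polr2f and Med13 are shown as examples of members that passed the threshold, the first pair lower and Med13 higher. Taf10 and Taf5l also passed, both lower, and their promoters are not shown. Each sequence covers 250 bases before to 50 after the start of transcription, from RefSeq on build GRCm38.p6, which is not the build of the authors' processing. The Polr2a window is chr11:69758584-69758883 on the minus strand, that of Polr2f is chr15:79141075-79141374 on the plus strand, and that of Med13 is chr11:86357547-86357846 on the minus strand. Capitals mark matches, on either strand, to a GC box, a TATA element, an ETS motif, an E-box or a CCAAT box, whose letters are given with their shares after the sequences.
Polr2a: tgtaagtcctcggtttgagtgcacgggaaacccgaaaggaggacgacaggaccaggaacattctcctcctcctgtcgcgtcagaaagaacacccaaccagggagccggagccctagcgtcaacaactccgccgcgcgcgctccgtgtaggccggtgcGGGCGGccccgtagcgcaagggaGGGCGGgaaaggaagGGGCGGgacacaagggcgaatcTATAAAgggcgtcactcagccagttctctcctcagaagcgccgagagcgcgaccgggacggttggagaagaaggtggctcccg
Polr2f: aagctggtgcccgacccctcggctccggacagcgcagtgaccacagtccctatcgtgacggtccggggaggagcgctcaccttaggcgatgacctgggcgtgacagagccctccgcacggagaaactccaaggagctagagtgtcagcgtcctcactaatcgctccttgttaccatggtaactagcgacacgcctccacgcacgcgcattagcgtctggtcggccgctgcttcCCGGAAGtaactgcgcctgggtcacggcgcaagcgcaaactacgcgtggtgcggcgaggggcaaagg
Med13: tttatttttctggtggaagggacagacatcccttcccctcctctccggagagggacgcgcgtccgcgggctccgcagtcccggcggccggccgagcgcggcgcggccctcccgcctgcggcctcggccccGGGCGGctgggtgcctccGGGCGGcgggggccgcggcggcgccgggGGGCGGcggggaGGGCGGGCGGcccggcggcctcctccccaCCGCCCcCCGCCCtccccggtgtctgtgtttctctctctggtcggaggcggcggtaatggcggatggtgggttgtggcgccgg

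The Polr2a window held 3 GC boxes and 1 TATA element, the Polr2f window 1 ETS motif, and the Med13 window 7 GC boxes. Of the windows not shown, that of Taf10 held 1 GC box and that of Taf5l an ETS motif and a GC box. A promoter was listed for 67 of the 78 tested members, and the first listed start of each gene was used. The ETS motif, CCGGAAG, stood in 22 of 67 members' windows (32.8%), against 16.2% of 11503 promoters of tested genes. The E-box, CACGTG, stood in 13 (19.4%, against 9.65%). The TATA element, searched as TATAAA, stood in 11 (16.4%, against 8.15%). GC boxes, searched as GGGCGG (67.2%, against 60.4%), and CCAAT boxes (35.8%, against 38.4%) stood in shares closer to those of all promoters. Among polymerase II genes, 1 of 8 windows, that of Polr2h, held an E-box. These are matches of letters, and no binding was measured.

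The other catalytic subunit, RPB2, is the product of Polr2b, with a log2 fold of -0.93 (adjusted p = 0.105) in the authors' deposited table. Polr2c and Polr2j encode RPB3 and RPB11, the pair on which the core is assembled. Their log2 folds were -1.04 (adjusted p = 0.0959) and -1.20 (0.116) in the authors' deposited table. Polr2d and Polr2g encode RPB4 and RPB7, which form the stalk. They stood at -1.09 (adjusted p = 0.180) and -1.19 (0.0902) in the authors' deposited table. The 7 subunits found in polymerase II alone thus had log2 folds from -1.20 to -0.14, all below 0, with a median of -1.04. The highest of them was Polr2i (-0.14, adjusted p = 1) in the authors' deposited table, which encodes RPB9, a subunit involved in transcript fidelity.

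Subunits shared by the 3 polymerases were less alike. Besides Polr2f, Polr2h, which encodes RPB8, had a log2 fold of -1.81 (adjusted p = 0.0694), and Polr2e, which encodes RPB5, one of -1.04 (0.132) in the authors' deposited table. Polr2k, which encodes RPB12, was the exception, at 0.74 (adjusted p = 0.795) in the authors' deposited table. Its transcript is the shortest of the tested members, at 601 bases. Pseudogenes of Polr2k and Polr2d are annotated, and whether reads for either gene were divided among copies was not tested. The associated factor gene Polr2m was listed under its older name Grinl1a, outside the name rule, with a log2 fold of -0.71 (adjusted p = 0.261) in the authors' deposited table.

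None of the 13 genes of TFIIA, TFIIB, TFIIE, TFIIF and TFIIH passed the adjusted threshold in the authors' deposited table, and 3 had an unadjusted p under 0.05, all lower (23.1%, against 10.4% of all tested entries). Of the 13, 11 had a fold below 1, and the median log2 fold was -0.46. The lowest values were in the TFIIH core, which unwinds promoter DNA and also serves nucleotide excision repair. Gtf2h4 (p52) had a log2 fold of -1.32 (adjusted p = 0.304), Gtf2h5 (p8) of -1.11 (0.199) and Gtf2h3 (p34) of -1.08 (0.177) in the authors' deposited table. The remaining genes of this name, Gtf2h1 (p62) and Gtf2h2 (p44), stood at -0.06 and 0.27 (adjusted p = 1 and 0.968) in the authors' deposited table. The 5 Gtf2h genes thus spanned from -1.32 to 0.27.

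Both TFIIF genes, whose products escort the polymerase to the promoter, had folds below 1. Gtf2f1 (RAP74) stood at -0.82 (unadjusted p = 0.0179, adjusted p = 0.113) and Gtf2f2 (RAP30) at -0.33 (adjusted p = 0.871) in the authors' deposited table. Gtf2b, the single gene of TFIIB, which bridges TBP and the polymerase, stood at -0.26 (adjusted p = 0.936) in the authors' deposited table. For TFIIE, which recruits TFIIH, Gtf2e1 and Gtf2e2 had log2 folds of -0.46 and -0.22 (adjusted p = 0.826 and 0.941) in the authors' deposited table. For TFIIA, which steadies TBP on DNA, Gtf2a1 stood at 0.41 (adjusted p = 0.769) and Gtf2a2 at -0.64 (0.486) in the authors' deposited table. Gtf2a1l, a germ cell form of TFIIA, had a log2 fold of -0.92 with an unadjusted p of 1 in the authors' deposited table.

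In TFIID, 1 of 16 tested genes fell past the adjusted threshold and 0 rose (6.25% called, against 11.3%), and 11 had a fold below 1. At an unadjusted p under 0.05, 2 were lower (12.5%, near the 10.4% of all tested entries) and 0 higher (against 11.9%). The group's median log2 fold was -0.43, with values from -1.59 to 0.74. Over the 8 TFIID genes that overlap no other annotated gene the median was 0.0498, so its sign depends on the genes that do. Taf10, a histone-fold TAF that TFIID shares with SAGA, stood at 0.332 of its level without DOX (log2 fold -1.59, adjusted p = 0.0111) in the authors' deposited table. Taf12, also shared with SAGA, followed at -1.35 (unadjusted p = 0.0163, adjusted p = 0.105) in the authors' deposited table. Taf10 overlaps the kinase gene Ilk in the annotation, and no source used here says how reads in such overlaps were assigned.

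Tbp, which binds the TATA element, had a log2 fold of -0.46 (adjusted p = 0.752) in the authors' deposited table. Taf1, the largest TAF, stood at 0.20 and Taf2 at -0.12 (adjusted p = 1 for both) in the authors' deposited table. Taf5 and Taf6, which build the core with Taf9, stood at -0.76 (adjusted p = 0.521) and -0.73 (0.300), and Taf9 at -0.76 (0.232), in the authors' deposited table. The Taf9 entry carries the RefSeq accession of Ak6, which overlaps it, so its value can mix both genes. Taf3 (-0.45), Taf11 (-0.41), Taf8 (0.24), Taf13 (0.54) and Taf7 (0.74) make up the rest, with adjusted p from 0.540, for Taf7, to 0.934, for Taf8, in the authors' deposited table. Where TFIID has paralogues, their values differed in sign or size, and these differences were not tested. Taf4a stood at -0.10 (adjusted p = 1) and Taf4b at -1.02 (0.739), and Taf9b at 0.73 (0.745), in the authors' deposited table.

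Among the 8 genes with a matching name and another role, Taf5l fell, at a log2 fold of -1.21 (adjusted p = 0.0339), in the authors' deposited table. Its partner in SAGA, Taf6l, stood at -1.02 (adjusted p = 0.283) in the authors' deposited table. Taf1b and Taf1c, of the polymerase I factor SL1, stood above 0, at 0.43 and 0.37 (adjusted p = 0.721 and 0.815), in the authors' deposited table. Taf1d, of the same factor, was listed as Josd3, outside the name rule, at 0.32 (adjusted p = 0.937) in the authors' deposited table. Taf15, an RNA-binding protein of the FET family, stood at -0.10 (adjusted p = 1) in the authors' deposited table. The TFII-I family genes Gtf2i, Gtf2ird1 and Gtf2ird2 stood at -0.55, -0.65 and 0.49 (adjusted p = 0.641, 0.369 and 0.754) in the authors' deposited table. These 3 have similar repeats, and whether reads were split between them was not tested, so these values are uncertain.

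Mediator had the median nearest to 0 of the 5 roles and held the 1 rise. Of 30 tested entries under the name rule, 1 rose and 0 fell (3.33% called, against 11.3%) in the authors' deposited table. Outside that rule, an entry of Med24 listed as Thrap4 fell (-3.32, adjusted p = 0.0357) in the authors' deposited table. At an unadjusted p under 0.05, 1 of the 30 was lower (3.33%, against 10.4% of all tested entries) and 1 higher (against 11.9%). Still, 23 of 30 had a fold below 1, and the median log2 fold was -0.31. The head, which contacts the polymerase, had a median of -0.71 over 7 genes. The middle had one of -0.38 over 9 genes and the tail, which meets activators, one of -0.28 over 9. The kinase module had one of 0.83 over 4 genes, of which Med12 and the entry named Med13l lay near 0. Its transcripts are long, with a median of 9921 bases, and relative to genes of the same length decile its median was 0.15. On that scale the head stood at -0.14, the middle at -0.18 and the tail at -0.28. The order of the modules and the gap to the kinase module thus differed between the scales. The part of length in this was not tested. Outside that module, 22 of 26 entries under the name rule had a fold below 1 (84.6%). Of these 26, 0 passed the adjusted threshold in the authors' deposited table, against 11.3% of all tested entries. At an unadjusted p under 0.05, 1 of them was lower (3.85%, against 10.4%) and 0 higher (against 11.9%) in the authors' deposited table.

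In the head, Med18 (-1.15, adjusted p = 0.355), Med8 (-0.93, 0.394), Med11 (-0.78, 0.723) and Med22 (-0.71, 0.402) had the lowest log2 folds in the authors' deposited table. Med17, on which the head is built, stood at -0.20, Med6 at 0.06 and Med20 at 0.46 (adjusted p = 0.984, 1 and 0.519) in the authors' deposited table. In the middle, Med10 was lowest (-1.03, unadjusted p = 0.0509, adjusted p = 0.227) in the authors' deposited table. Med1, the subunit that binds nuclear receptors, was the 1 middle gene above 0, at 0.38 (adjusted p = 0.664) in the authors' deposited table. Between them lay Med31 (-0.64), Med4 (-0.57), Med26 (-0.39), Med9 (-0.38), Med19 (-0.33), Med21 (-0.27) and Med7 (-0.14), with adjusted p from 0.681, for Med4, upward in the authors' deposited table. The scaffold gene Med14 stood at -0.48 (adjusted p = 0.496) in the authors' deposited table.

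Among tail entries under the name rule, Med16 had the lowest log2 fold and the 1 unadjusted p under 0.05 (-0.88, unadjusted p = 0.0255, adjusted p = 0.144) in the authors' deposited table. Med30 (-0.76), Med25 (-0.60) and Med28 (-0.51) followed, with adjusted p of 0.478, 0.483 and 0.732 in the authors' deposited table. Med29 (-0.28), Med27 (-0.27), Med24 (-0.23), Med23 (-0.01) and Med15 (0.00) lay nearer to 0 in the authors' deposited table, with adjusted p from 0.877, for Med24, upward. Further entries of Med24 and Med15, listed as Thrap4 and Pcqap outside the name rule, stood at -3.32 and 1.38 in the authors' deposited table. Thrap4 passed the adjusted threshold and Pcqap did not.

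In the kinase module, which holds the kinase Cdk8 or Cdk19 with cyclin C and joins Mediator through Med13, the members differed widely. Med13 rose to 3.00 times its level without DOX (log2 fold 1.59, adjusted p = 0.00314) in the authors' deposited table. Its paralogue Med13l stood at -0.17 (adjusted p = 0.971), and a second Med13l entry, listed as Thrap2, at 0.93 (0.238) in the authors' deposited table. Med12, which activates the kinase, stood at 0.07 (adjusted p = 1) under its own name in the authors' deposited table. Its paralogue Med12l had the largest fold of all members, 5.06 (log2 fold 2.34), but an adjusted p of 0.658 in the authors' deposited table. The table gives neither the spread nor the reads behind it. The Med12l span also holds other genes in the annotation, among them the purinergic receptor genes P2ry12, P2ry13 and P2ry14, and their part in its value was not tested. The partners outside the name rule did not pass, with Cdk8 at -0.43, Cdk19 (listed as Cdc2l6) at 0.10 and Ccnc at 0.54 (adjusted p = 0.775, 0.890 and 0.685) in the authors' deposited table.

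**Figure D2:**
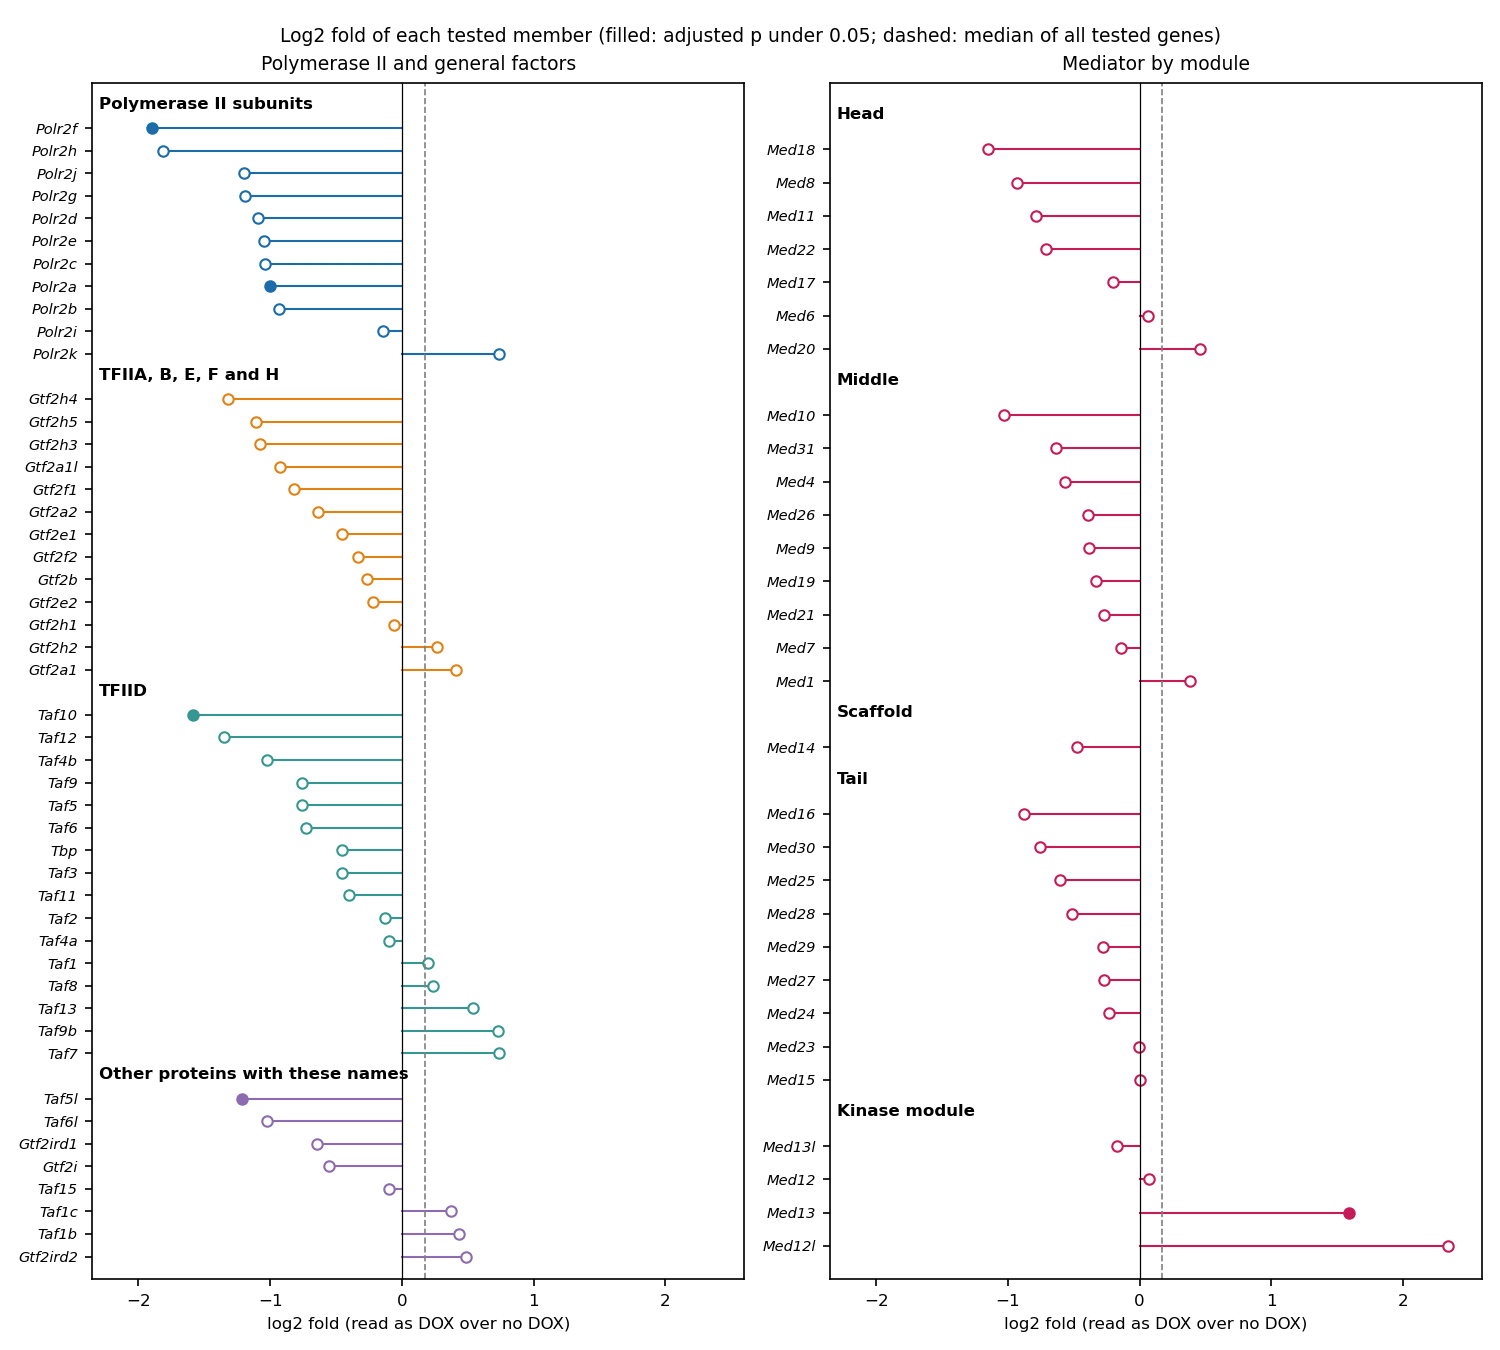
Log2 fold (x axis, read as DOX over no DOX) of each of the 78 tested members in the authors' deposited table, grouped by role or Mediator module and ordered by value; filled points have an adjusted p under 0.05, and the dashed line is the median of all tested genes (0.17). Of 11 polymerase II subunits 10 lie left of 0, while the Mediator kinase module has 3 of 4 genes right of 0.

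Set side by side, the medians ran from -1.04 for polymerase II subunits over -0.46 for TFIIA, B, E, F and H and -0.43 for TFIID to -0.31 for Mediator. The interquartile range of the polymerase genes (-1.19 to -0.97) lay below that of Mediator (-0.63 to -0.04). Among members that overlap no other annotated gene, the order was another, with -1.19 for polymerase II, -0.87 for the general factors, -0.57 for Mediator and 0.0498 for TFIID. No test was made of these differences, since genes are not replicates. Among the 10 lowest members by log2 fold, 4 were polymerase subunits, 2 TFIID, 2 general factor, 1 Mediator and 1 SAGA gene.

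Transcript length went with the fold over all tested genes and, within the roles, in Mediator. Polymerase genes are short, with a median annotated transcript of 950 bases, against 2303 for Mediator, 3545 for TFIID and 1679 for the general factors. In the decile of the shortest transcripts, of at most 1242 bases, the median log2 fold of all tested genes was -0.64, and in the longest decile it was 0.68. Taken relative to genes of the same length decile, the medians became -0.56 for polymerase II, -0.10 for the general factors, -0.57 for TFIID and -0.21 for Mediator. The polymerase and TFIID medians thus stood level once length was taken into account. The decile-relative value of Polr2a, whose transcript of 6740 bases is long, was -1.69, and that of Polr2f, with 885 bases, was -1.25. Med13, with 10546 bases, remained above the median of its decile by 0.91. Its log2 fold of 1.59 was about that decile's upper quartile, 1.58. Across the 78 members, log2 fold and length had a Spearman's rho of 0.30, and log2 fold and GC one of -0.34, as against 0.28 and -0.24 over 13175 tested genes. Within Mediator it was 0.58 with length over 30 genes, and within polymerase II 0.10 over 11. It was -0.01 over the 13 general factor genes, -0.12 over the 16 TFIID genes and 0.07 over the 8 others. These points share the same 6 libraries. Annotated lengths can exceed the expressed form. Whether they do for Tbp (12794 bases) and Taf10 (4281 bases) was not tested.

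**Figure D3:**
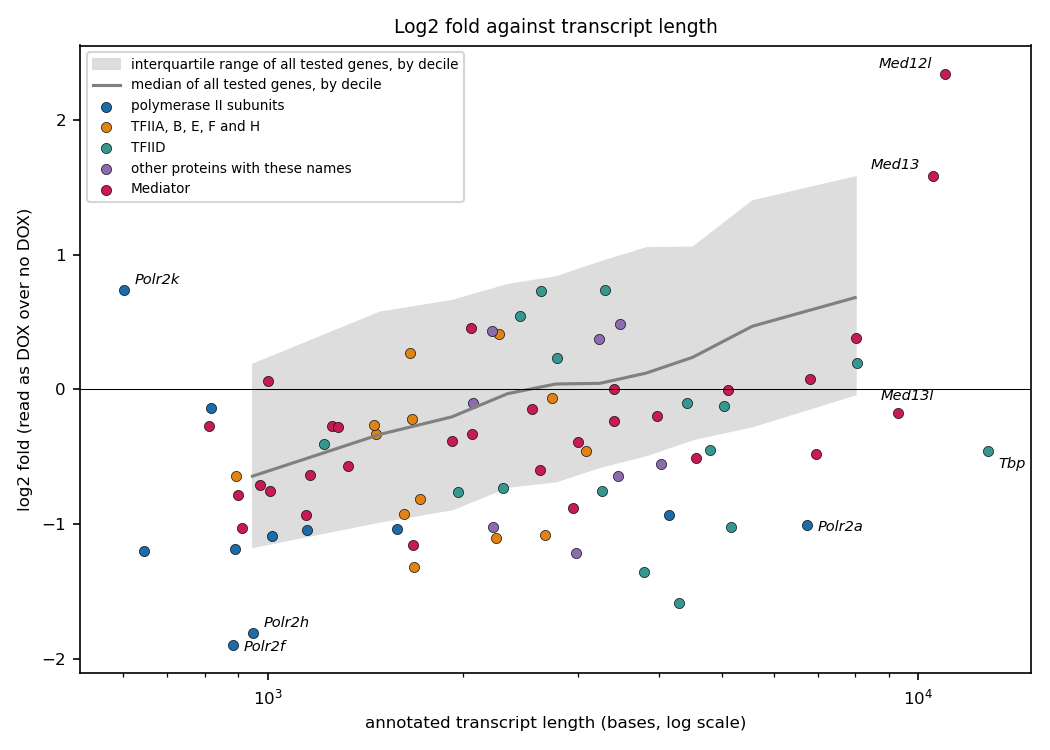
Log2 fold (y axis, read as DOX over no DOX) against annotated transcript length (x axis, bases, log scale) for the 78 tested members, coloured by role, over the median (line) and interquartile range (band) of all tested genes in each length decile, drawn at the decile's median length. Polr2h lies below the band among short transcripts and Polr2a among long ones. Polr2f, Polr2g and Polr2j lie past its left end, below its lower edge. Past its right end, Med13 (1.59) lies about level with its upper edge (1.58) and Med12l above it.

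Related machinery gave a frame for these values. Of 6 tested polymerase I genes, which include subunits shared with polymerase III, 2 fell (33.3%, against 5.61% of all tested entries) and 0 rose. Their median log2 fold was -1.39. Those that fell were Polr1a and Polr1b, listed as Rpo1-4 and Rpo1-2, which encode the largest subunits (-1.98 and -2.01) in the authors' deposited table. At an unadjusted p under 0.05, 5 of the 6 were lower (83.3%, against 10.4% of all tested entries) and 0 higher. Of 11 polymerase III genes 0 passed in the authors' deposited table, 0 also at an unadjusted p under 0.05, and the median was -0.09. Of 5 TFIIH genes outside the name rule, namely the kinase genes Cdk7, Ccnh and Mnat1 and the helicase genes Ercc2 and Ercc3, 0 passed in the authors' deposited table, 0 also unadjusted. Their log2 folds lay from -0.24 to 0.37.

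Of 35 elongation and pausing factors 4 rose (against 5.72% of all tested entries) and 1 fell (2.86%, against 5.61%) in the authors' deposited table. The median was -0.15, and the share called in either direction, 14.3%, was near the 11.3% of all tested entries. Those that rose were Aff4 (1.57), Cdk12, listed as Crkrs (1.70), Ccnt2 (1.24) and Aff1 (1.02) in the authors' deposited table. They encode scaffolds of the super elongation complex (Aff4 and Aff1), a kinase of the polymerase tail (Cdk12) and a cyclin of P-TEFb (Ccnt2), and their annotated transcripts are at least 5912 bases long. Ssrp1, of the histone chaperone FACT, fell (-1.64, adjusted p = 0.000317) in the authors' deposited table. Cdk9, the kinase of P-TEFb, stood at -0.66 (adjusted p = 0.368) in the authors' deposited table. Among 13 further SAGA genes 1 rose, Atxn7 (1.26, adjusted p = 0.0300), and 1 fell, the acetyltransferase gene Kat2a, listed as Gcn5l2 (-1.57, 0.0170), in the authors' deposited table. The share called was 15.4%, against 11.3%. Of 14 Integrator genes 0 passed in the authors' deposited table, and the median was -0.69. At an unadjusted p under 0.05, 4 were lower (28.6%, against 10.4% of all tested entries).

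**Figure D4:**
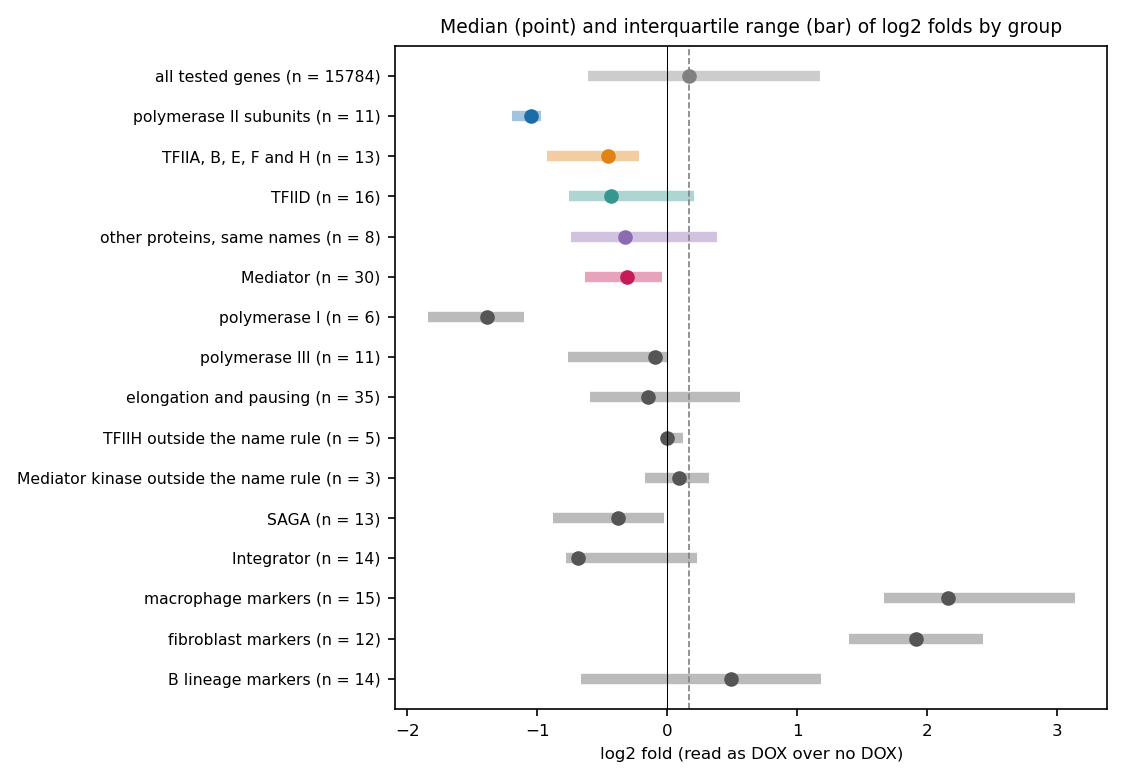
Median log2 fold (point) and interquartile range (bar) of each group in the authors' deposited table, on an x axis of log2 fold read as DOX over no DOX, with the number of genes with a finite fold; the dashed line is the median of all tested genes. Polymerase II (-1.04) and polymerase I (-1.39) have the lowest medians shown, and macrophage (2.16) and fibroblast (1.91) markers the highest.

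MicroRNAs silence transcripts through matches to their seed, bases 2 to 8, in the 3' UTR. The mature sequence is given with its seed in capitals, from RefSeq, with the matches in Med14, the 1 member with the longest form of match, in Med12l and Med20, the higher members with a 7-base match (AGCATTA), and in Taf10, which fell. In the sites capitals mark the match.
mmu-miR-155-5p: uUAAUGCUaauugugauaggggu
Med14: aaaatgtatacAGCATTAActaggaacaaa
Med12l: cccaatgtgtgAGCATTAggctgccctgta
Med20: aaagttttaccAGCATTAgcgttttggcct
Taf10: agaggataggaAGCATTAtctcaggctgta

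Of 78 members with an annotated 3' UTR, 12 (15.4%) held AGCATTA or GCATTAA, against 13.6% of 14903 tested entries. Those 12 had a median log2 fold of -0.30 and the other 66 one of -0.53. Over all tested entries the medians were 0.41 with a match and -0.01 without, in 3' UTRs whose median length was 2585 and 1008 bases. None of the 12 rose and 1, Taf10, fell in the authors' deposited table. Over all tested entries 196 rose and 83 fell of the 2024 with a match, and 572 rose and 914 fell of the 12879 without, in the authors' deposited table. The Taf10 match lies in its longest annotated 3' UTR, of 3581 bases, and Taf10 overlaps Ilk in the annotation. Med14, with a match extended by an A, stood at -0.48 (adjusted p = 0.496) in the authors' deposited table. Med20 stood at 0.46 and Med12l, with 2 matches, at 2.34, neither past the threshold (adjusted p = 0.519 and 0.658), in the authors' deposited table. Med13, the member that rose, held neither 7-base match in its annotated 3' UTR of 3953 bases.

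Some genes of these complexes stood in the authors' deposited table more than once. Med24 was listed again as Thrap4, at a log2 fold of -3.32 (adjusted p = 0.0357), against -0.23 under its own name, in the authors' deposited table. Med15 was listed again as Pcqap, at 1.38 (unadjusted p = 0.00990, adjusted p = 0.0743) against 0.00, in the authors' deposited table. Med13l was listed again as Thrap2, at 0.93 (adjusted p = 0.238) against -0.17, in the authors' deposited table. Taf8, as Tbn (0.50), and Gtf2i, as Diws1t (1.63), also had such entries, with adjusted p of 0.777 and 0.923, in the authors' deposited table. These entries fall outside the name rule and carry no RefSeq accession, and the values of Med24, Med15, Med13l, Taf8 and Gtf2i hold for 1 listed entry and not for the whole gene. In the annotation used here, 37 of 79 members overlap another gene. Among the 41 tested members that do not, 2 fell, Polr2a and Polr2f, and 0 rose in the authors' deposited table. Of all tested entries, 5.61% fell and 5.72% rose. Med13, Taf10 and Taf5l overlap another gene.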

How the data were processed

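RNA was measured by sequencing of ribosome-depleted total RNA from 6 tumour samples, 3 with DOX and 3 without. The submitters' processing notes name RSEM and DESeq, both unversioned, and build mm9. The authors deposited 1 table of their comparison, whose values are a linear fold, or ratio, and unadjusted and adjusted p-values per gene, per the file headers. The deposited table holds no counts or values per sample, so depth and precision per sample are unknown and no test was rerun. Recomputing the Benjamini-Hochberg adjustment over the 18543 tested entries gave the deposited adjusted p-values to within 2.09e-06.

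Log2 folds were computed from the deposited ratio. Of the tested entries, 15784 had a finite fold. A gene was called at an adjusted p under 0.05. Groups are described by counts and medians, with no test across genes. The members, lists and naming rule were chosen with earlier results of these data known. Every called member is named, with the highest and lowest of each role, and the remaining members are named to account for them. From the related lists, up to 4 called genes a direction are named. Identifiers were matched to current symbols by symbol, RefSeq accession or unique synonym (15164 of the tested entries). Transcript length, GC and 3' UTRs came from GENCODE M21 (GRCm38), matched by the deposited accession or, failing that, the longest coding transcript, with the longest 3' UTR of each gene searched for seed matches. Lengths were found for 13175 tested entries with a finite fold and for all 78 tested members. Counting, adjustment and decile steps were tested on simulated data. Python 3.11.15 and pandas 2.3.3 were used. Alternatives were stricter and looser thresholds, other memberships and length or GC deciles.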

Additional observations from a re-analysis of the deposited data

How the results depend on the processing

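No paired analysis was possible because the deposited table holds no value per sample, and for the same reason no replicate could be left out. With an adjusted p under 0.01 the count of members that fell became 0, and under Bonferroni 0 fell and 0 rose, while under 0.1 7 fell, with Polr2h, Polr2g and Polr2c added. Med13 passed under 0.01 and under 0.1. Without members that overlap another annotated gene, an alternative chosen after seeing the data, 0 rose and 2 fell, and the medians became -1.19 for polymerase II, -0.87 for general factors, -0.57 for Mediator and 0.0498 for TFIID, whose sign thus turned. Relative to the length decile the medians were -0.56 for polymerase II, -0.10 for general factors, -0.57 for TFIID and -0.21 for Mediator. Relative to the GC decile they were -0.68 for general factors and -0.41 for Mediator. Less the median of all tested entries they were -1.22, -0.63, -0.60 and -0.48 for polymerase II, general factors, TFIID and Mediator. The other 28 values recomputed for counts and medians stayed within 0.1 or within 1.5 times, among them those without the kinase module or the shared subunits. Also among them, membership by current symbol gave 5 that fell in place of 4, with Thrap4, an entry of Med24, added.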
